A study of Homo sapiens with 4 samples.

Results

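SOST, CST1, PRR9, SP6, ADAMTSL2, FCN3, EXOC3L1 and GNG11 are 8 of the 17630 genes measured as H1 cells, an established line of human embryonic stem cells, were turned into blood. They were chosen by their deposited expression values, being high in cells sorted on day 4 against those of day 2 or day 7, so their height on day 4 is the reason they are described and not a finding. The 4 groups were undifferentiated H1 cells (hESC), the APLNR+ fraction of day 2 (MES), the CD31+CD34+ fraction of day 4 (HEP) and the CD31+CD43+ fraction of day 7 (HPC). No genetic change is stated for any group. MES cells had received activin A at 40 ng/ml and BMP4 at 50 ng/ml for 2 days. HEP cells had in addition received VEGF at 40 ng/ml and bFGF at 50 ng/ml for 2 days, and HPC cells had then received VEGF and bFGF together with SB-431542, which blocks the receptors of activin and NODAL, over a further 3 days. With 1 library a group and 1 cell line, no value carries an error, nothing could be tested over replicates, and stage, sort and culture additions cannot be told apart.

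As background, CD31 and CD34 mark endothelium, including the haemogenic endothelium from which the first blood cells emerge, and CD43 marks cells that have entered the blood lineage. Endothelial cells are known for VE-cadherin, VEGF receptors and the TIE receptors. None of the 8 genes is a classical marker of this step. SOST encodes sclerostin, a secreted antagonist of WNT signalling known from osteocytes. CST1 encodes cystatin SN, a secreted inhibitor of cysteine proteases known from saliva. PRR9 encodes a proline-rich protein and lies in the epidermal differentiation complex, a gene cluster of the skin barrier. SP6, also called epiprofin, is a zinc finger transcription factor of the SP family known in mouse from tooth and skin. ADAMTSL2 encodes a secreted glycoprotein that binds microfibrils and lacks the protease domain of the ADAMTS enzymes. FCN3 encodes ficolin-3, a lectin that starts the lectin pathway of complement and is known from liver and lung. EXOC3L1 encodes a protein related to a subunit of the exocyst, which tethers secretory vesicles. GNG11 encodes a gamma subunit of heterotrimeric G proteins. The genes are spread over the genome, with SOST and SP6 on chromosome 17, PRR9 and FCN3 on chromosome 1, and CST1, ADAMTSL2, EXOC3L1 and GNG11 on chromosomes 20, 9, 16 and 7.

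The RefSeq promoter table, of build GRCh38.p14, held 4 of the 8 genes, and these sequences are shown because 3 of them belong to genes found almost entirely in the HEP library and the other to a gene that stayed high in HPC. Each sequence runs from 250 bases before to 50 bases after the gene start, 5′ to 3′ on the gene's strand. Capitals mark TATAAA and TTTAAA on either strand, forms of the TATA box at which the transcription machinery can assemble; the second form was added after the sequences had been read.
SOST, chr17:43758742-43759041, minus strand: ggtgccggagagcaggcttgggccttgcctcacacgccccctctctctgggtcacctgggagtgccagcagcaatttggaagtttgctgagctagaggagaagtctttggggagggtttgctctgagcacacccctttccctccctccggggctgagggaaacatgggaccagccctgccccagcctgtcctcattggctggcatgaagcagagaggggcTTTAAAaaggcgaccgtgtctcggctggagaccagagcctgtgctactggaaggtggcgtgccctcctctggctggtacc
PRR9, chr1:153217334-153217633, plus strand: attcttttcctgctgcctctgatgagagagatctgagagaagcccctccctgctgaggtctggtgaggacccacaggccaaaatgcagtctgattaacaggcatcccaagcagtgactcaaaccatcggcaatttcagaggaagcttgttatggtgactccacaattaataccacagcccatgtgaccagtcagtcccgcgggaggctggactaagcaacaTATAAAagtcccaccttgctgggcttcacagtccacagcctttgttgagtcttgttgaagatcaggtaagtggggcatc
ADAMTSL2, chr9:133534454-133534753, plus strand: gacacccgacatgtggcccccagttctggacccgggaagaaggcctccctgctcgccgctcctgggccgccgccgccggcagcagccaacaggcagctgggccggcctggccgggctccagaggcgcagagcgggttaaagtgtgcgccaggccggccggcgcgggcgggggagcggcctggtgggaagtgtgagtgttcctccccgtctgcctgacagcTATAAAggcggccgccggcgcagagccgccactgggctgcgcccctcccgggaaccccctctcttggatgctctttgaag
GNG11, chr7:93921485-93921784, plus strand: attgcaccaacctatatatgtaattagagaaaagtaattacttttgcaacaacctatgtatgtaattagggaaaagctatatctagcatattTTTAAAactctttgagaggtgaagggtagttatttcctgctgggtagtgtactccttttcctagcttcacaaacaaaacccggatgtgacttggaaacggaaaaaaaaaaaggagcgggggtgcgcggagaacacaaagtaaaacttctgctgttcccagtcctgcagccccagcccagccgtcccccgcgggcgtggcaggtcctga

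The marked letters began 30 bases before the start in SOST (TTTAAA), 29 in PRR9 (TATAAA) and 30 in ADAMTSL2 (TATAAA), and 158 before the start in GNG11 (TTTAAA). On the gene's strand, a match to either form that began 26 to 32 bases before the start was present in 3 of these 4 promoters and in 3.11% of the 35116 promoters in the table. For TATAAA alone these were 2 of 4 and 2.05%. Both the second form and this window were chosen after these promoters had been read, so the shares are a description. Anywhere in the window and on either strand, TATAAA was present in 11.5% of all promoters and TTTAAA, which reads the same on both strands, in 12.2%. AGGAAG, a form of the ETS factor core, was present in PRR9 (33.6% of all promoters), CGGAAG in none of the 4 (19.5%), and the GATA factor forms AGATAA and TGATAA in none of the 4 (10.3% and 7.53%). CACCC, the core bound by KLF and SP factors, was present in SOST, ADAMTSL2 and GNG11 and in 59.9% of all promoters. All were searched on both strands. These matches describe letters in the reference genome and no binding was measured here.

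Values are the normalised expression values that the authors deposited, whose exact measure is not named in the sources used here. The sequencing depth behind them is unknown. Differences are log2 differences of (value + 1), later library minus earlier library, and this scale makes the change of weakly expressed genes look smaller than it is. To count as higher or lower, a gene needed a size of at least 1 and a value of 5 or more in the higher library. The values summed to between 306724 in HEP and 426980 in hESC. PECAM1, which encodes CD31, stood at 1.83 in HEP and 7.49 in HPC, low for both sorts, while CD34 stood at 43.6 in HEP and 18.4 in HPC and SPN, which encodes CD43, at 0.97 in HEP and 24.4 in HPC. Of 20 detected endothelial markers (1 or more in any library), 16 were higher in HEP than in MES and none lower. In bulk RNA, fewer cells expressing a gene and less RNA per cell cannot be told apart.

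All 8 genes were highest in HEP. All 8 were higher in HEP than in MES, where 3.32% of all genes were higher and 13.9% lower (8.26% and 8.2% with median-of-ratios scaling), and all 8 were lower in HPC than in HEP, where 3.57% of all genes were lower and 3.01% higher (5.01% and 2.21% with a common total); the choice of genes used both comparisons, so nothing is read from these counts. Against hESC, all 8 were higher in HEP, where 5.56% of all genes were (10.8% with median-of-ratios scaling). All 8 also belonged to 184 genes (1.04% of all), called particular to HEP below. These had 5 or more in HEP and a log2 difference of (value + 1) of at least 1 above every other library. Among themselves they differed in how much of the HEP level remained in HPC. By this they are described below as 2 sets, a division made after the values were seen and partly from values that served in the choice. Of 16 other genes of their family lists that were higher or lower in HEP than in MES, 11 lost that call under at least 1 of 5 scalings and none turned its sign. Counts over these short lists are a description, to be read against the shares of all genes just given.

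**Figure D1:**
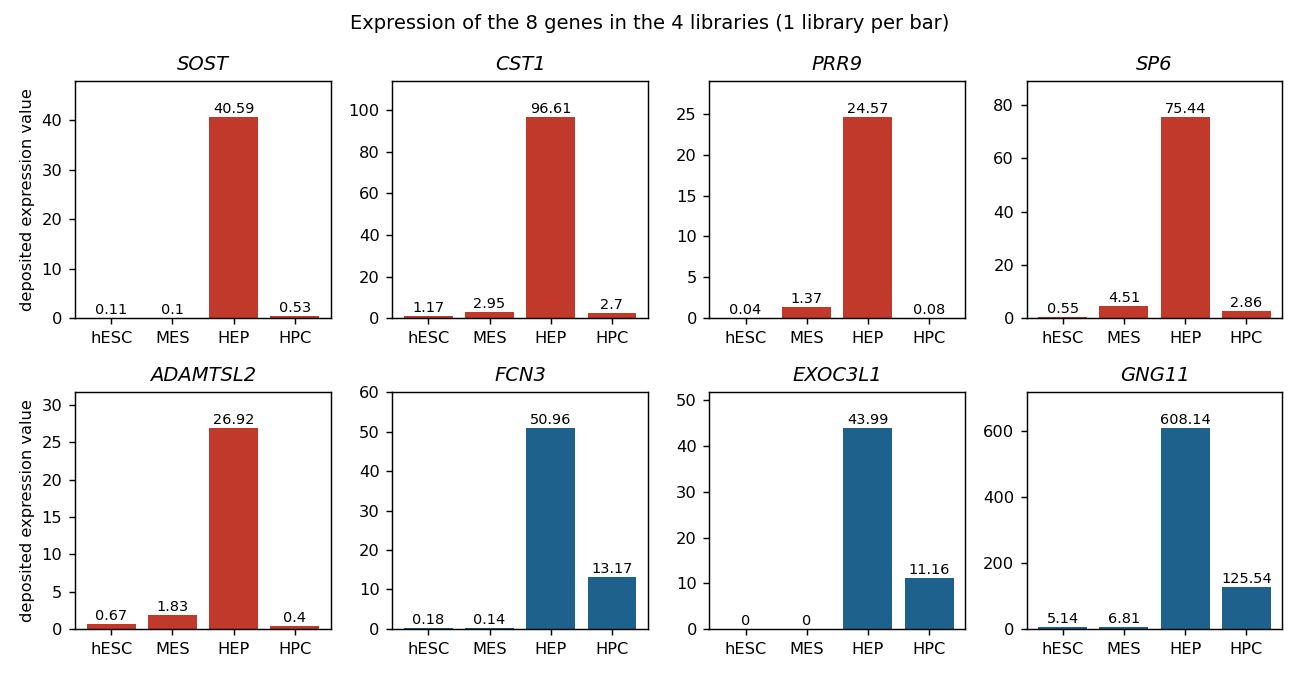
Deposited expression values (linear axis from 0, own scale in each panel) of the 8 genes in hESC, MES, HEP and HPC, 1 library per bar. SOST, CST1, PRR9, SP6 and ADAMTSL2 (red) returned to 2.86 or less in HPC, while FCN3, EXOC3L1 and GNG11 (blue) lay between 11.2 and 125.5 there.

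SOST, CST1, PRR9, SP6 and ADAMTSL2 were found almost entirely in the HEP library. Their HPC value was under 5% of the HEP value, and between 0.326% (PRR9) and 3.79% (SP6) of it. Of the 184 genes particular to HEP only 10 were this low in HPC, 5.43%, and the median of the 184 was 26.6% (quartiles 17 and 38.1). The other 5 genes, named after their values were seen, were APLN, FAM222A, ZAP70, SP7 and SCUBE1. On the (value + 1) scale, SOST, CST1 and PRR9 had the 3 largest decreases from HEP to HPC of all 17630 genes, and ADAMTSL2 and SP6 ranked 6 and 7. These ranks come from a comparison on which the genes were chosen and are given as a description.

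SOST, the WNT antagonist, stood at 0.11 in hESC and 0.1 in MES, at 40.6 in HEP and at 0.53 in HPC. It was near 0 in 3 of the 4 libraries, MES included. The log2 difference was 5.24 for HEP minus MES and -4.76 for HPC minus HEP. SOSTDC1, the nearest relative of SOST, stood at 0.98 in MES and 0.68 in HEP and so was low throughout. The co-receptors that sclerostin binds were present in HEP without standing out there. LRP4 stood at 4.13 in hESC and 9.06 in MES, at 10.9 in HEP and at 5.11 in HPC. LRP5 lay between 4.87 and 6.36 in the 4 libraries. LRP6 was lower in HEP (4.31) than in MES (11.3), with a log2 difference of -1.21, a call lost under 3 of 5 scalings (-0.71 with the GC trend of each library removed).

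Since SOST is known from bone, markers of osteoblasts and osteocytes were read beside it. DMP1, MEPE, BGLAP and FGF23, which mark osteocytes and mature osteoblasts, were listed at 0 in HEP, with PHEX at 0.05 and RUNX2 at 0.1. SP7, or osterix, the transcription factor of bone-forming cells, stood at 5.17 in HEP and at 0.15 or less in the other libraries. COL1A1, a chain of collagen I, stood at 51.3 in HEP against 12.1 in MES and at 12.8 in HPC. COL1A2, its partner chain, stood at 235 in HEP, 119.5 in MES and 53.4 in HPC. Of 6 detected genes of this list, 2 (SP7 and COL1A1) were higher and 1 (SPP1, 1.65 in HEP and 14.3 in MES) was lower in HEP than in MES, and 4 were lower in HPC than in HEP. The 11 genes with a row summed to 67.5 in hESC and 162 in MES, to 302 in HEP and to 70 in HPC. Collagen made up most of the sum in MES, HEP and HPC. In hESC the largest value was that of ALPL, another gene of the list. ALPL fell from 30.8 in hESC through 15.6 in MES and 8.73 in HEP to 0.9 in HPC. The part of other cells in the SOST value was not tested.

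CST1, the cystatin, stood at 1.17 in hESC and 2.95 in MES, at 96.6 in HEP and at 2.7 in HPC, the second highest HEP value of the 8. Its HEP value was 32.7 times that of MES, a log2 difference of 4.63, and HPC minus HEP was -4.72. HPC was thus back at the level of MES. CST1 lies beside CST2 and CST4, close copies whose reads the authors' counting could have shared out, so the split between them is uncertain. CST4 stood at 2.31 in HEP and 0.18 or less elsewhere, and CST2 at 0.38 in HEP, both far below CST1. CST3, or cystatin C, the widely expressed member, followed another course: it stood at 57.8 in HEP against 7.12 in MES (log2 difference 2.86) and stayed at 53.7 in HPC. Of the 5 other detected cystatins and stefins, CST3 alone was higher in HEP than in MES and none was lower. Among 9 detected cysteine cathepsins, the proteases that cystatins inhibit, CTSB was higher (23.4 in HEP, 7.29 in MES) and CTSV lower (3.18 in HEP, 24.97 in MES). Markers of salivary gland, where CST1 is best known, summed to 1.90 in HEP and between 2.40 and 3.56 in the other libraries, with 5 of 7 listed at 0 in HEP.

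PRR9 stood at 0.04 in hESC and 1.37 in MES, at 24.6 in HEP and at 0.08 in HPC. Its HEP value was 17.9 times that of MES, and no other of the 8 genes kept so small a part of it in HPC (0.326%). The differences were 3.43 for HEP minus MES and -4.57 for HPC minus HEP. Of 9 listed genes of the skin barrier cluster that holds PRR9, PRR9 was the only one at 1 or more in any library. The list does not cover the whole cluster, so nothing is said of its other genes. PGLYRP3, a peptidoglycan recognition protein of this cluster, stood at 0.36 and LOR, or loricrin, at 0.09 in HEP. Keratinocyte markers summed to 1.35 in HEP and to between 0.88 and 1.23 in the other libraries, most of it KRT10, with KRT5, KRT14, KRT1 and KRT15 listed at 0 in HEP.

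SP6, the transcription factor, stood at 0.55 in hESC and 4.51 in MES, at 75.4 in HEP and at 2.86 in HPC. Its MES value was 8.2 times that of hESC (log2 difference 1.83) but stayed below the minimum of 5. HEP minus MES was 3.79 and HPC minus HEP was -4.31. Other SP factors divided by stage. SP5, a WNT target, was already present in MES and stood at 0.06 in hESC and 10.7 in MES, at 16.0 in HEP and at 2.78 in HPC. SP7 shared the HEP-only course of SP6 at a lower level, as given above. SP3, a ubiquitous factor, was lower in HEP (3.51) than in MES (20.4), a call that removal of the GC trend ended (-0.66), and SP4 stood at 0.37 in HEP and 3.5 in MES. SP2, which lies next to SP6, stayed at 0.25 or less in every library. In all, 1 of 6 other detected SP genes was higher and 1 lower in HEP than in MES, and 2 (SP5 and SP7) were lower in HPC than in HEP. SP7 fell below the minimum of 5 once the GC trend was removed.

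ADAMTSL2, the microfibril-binding protein, stood at 0.67 in hESC and 1.83 in MES, at 26.9 in HEP and at 0.4 in HPC. Its HEP value was 14.7 times that of MES, the smallest step of the 8 (log2 difference 3.3), and HPC minus HEP was -4.32. It was the only one of the 8 with a lower value in HPC than in hESC. The other ADAMTS-like genes were low: ADAMTSL1, ADAMTSL3, ADAMTSL4 and ADAMTSL5 stood at 0.85 or less in every library. None of its 4 other detected relatives and microfibril partners was highest in HEP, and 1 (FBN2) was lower there than in MES, though under none of 5 scalings. FBN2, or fibrillin-2, stood at 4.19 in hESC and 149.9 in MES, at 67.9 in HEP and at 9.62 in HPC. FBN1 stood at 7.37 in MES and 6.37 in HEP, and LTBP1, a latent TGF-beta binding protein, was highest in HPC (14.7).

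FCN3, EXOC3L1 and GNG11 formed the second set. Their HPC values were 25.8%, 25.4% and 20.6% of the HEP values, close to the median of 26.6% over the genes particular to HEP. All 3 were still higher in HPC than in hESC, where 4.67% of all genes were (9.04% with median-of-ratios scaling), and higher than in MES, where 4.12% were higher and 13.3% lower (8.39% and 7.74% with that scaling). The first set could not pass either comparison in either direction, since its values in hESC, MES and HPC all lay under 5. Without that minimum, SP6 was higher in HPC than in hESC (log2 difference 1.32), and PRR9 and ADAMTSL2 were lower in HPC than in MES.

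FCN3, the complement lectin, stood at 0.18 in hESC and 0.14 in MES, at 51.0 in HEP and at 13.2 in HPC. The differences were 5.51 for HEP minus MES and -1.87 for HPC minus HEP. HPC stayed well above both earlier libraries, with HPC minus MES at 3.64. FCN1, the ficolin of monocytes, was listed at 0 in all 4 libraries. MASP1, a protease that ficolins carry, stood at 0.53 in hESC and 0.13 in MES, at 3.36 in HEP and at 4.7 in HPC and so was highest in the same pair of libraries as FCN3, below the minimum of 5. MASP2, the protease that cleaves complement C4, was listed at 0 in HEP and HPC. COLEC12, a scavenger receptor of the collectin family, was lower in HEP (22.9) than in MES (62.6), a call lost under 3 of 5 scalings. Hepatocyte markers, read because FCN3 is known from liver, summed to 12.4 in HEP and 8.07 in HPC against 2.46 in MES; APOA1 made up 10.7 of the HEP sum, and ALB, or albumin, and SERPINA1 were listed at 0 there.

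EXOC3L1 was listed at 0 in hESC and in MES and stood at 44.0 in HEP and 11.2 in HPC. It is the only one of the 8 listed at 0 in any library, so no fold is given against those libraries. Its (value + 1) profile over the 4 libraries lay at a Euclidean distance of 0.04 on the log2 scale from that of FCN3, the closest pair among the 8. EXOC3L2, its paralog, took a like course at a lower level, at 0.56 in hESC and 0.01 in MES, at 14.6 in HEP and at 3.14 in HPC. The exocyst itself did not: EXOC4 lay between 20.55 and 23.25 in the 4 libraries. EXOC3 and EXOC7 were slightly highest in HEP, at 9.22 and 27 against 6.77 and 23.9 in MES, and did not pass the rule. EXOC1 and EXOC5 were lower in HEP (0.48 and 1.28) than in MES (7.43 and 8.62), calls lost with the GC trend removed (log2 differences of -1.40 and -0.63). Of 10 other detected genes of this list, 1 was higher and 3 were lower in HEP than in MES; the third, EXOC6B, also lost its call with the GC trend removed (-0.56) and with median-of-ratios scaling (-0.98).

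GNG11, the G protein gamma subunit, had by far the highest level of the 8. It stood at 5.14 in hESC and 6.81 in MES, at 608 in HEP and at 126 in HPC. Among all genes of a library its value ranked 6553 in hESC and 5654 in MES, then 99 in HEP and 343 in HPC. HEP was 89.3 times MES, a log2 difference of 6.29, and HPC minus HEP was -2.27. It was the only one of the 8 at 5 or more before day 4. GNG2, another gamma subunit, was also highest in HEP, but only slightly and at a far lower level. Its HEP value of 2.7 was close to the 2.32 of undifferentiated cells, a log2 difference of 0.16. MES (0.87) and HPC (0.85) were lower. GNG5 lay between 15.05 and 22.65 in the 4 libraries, and GNG10 was lower in HEP (4.21) than in MES (39.2). Of the beta subunits with which gamma subunits pair, GNB2 was higher in HEP (109) than in MES (51.4), with a log2 difference of 1.07, and GNB4 was lower (5.48 in HEP, 18.8 in MES); with the GC trend removed neither passed, at 0.6 and -0.38. Of 9 other detected gamma and beta subunits 1 was higher and 3 lower in HEP than in MES, and the third of these, GNB5 (2.95 in HEP, 7.1 in MES), passed under none of 5 scalings. A lncRNA gene, LOC105375402, overlaps GNG11 in RefSeq, and without stated strand their reads cannot be told apart; no other of the 8 overlaps an annotated gene there.

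**Figure D2:**
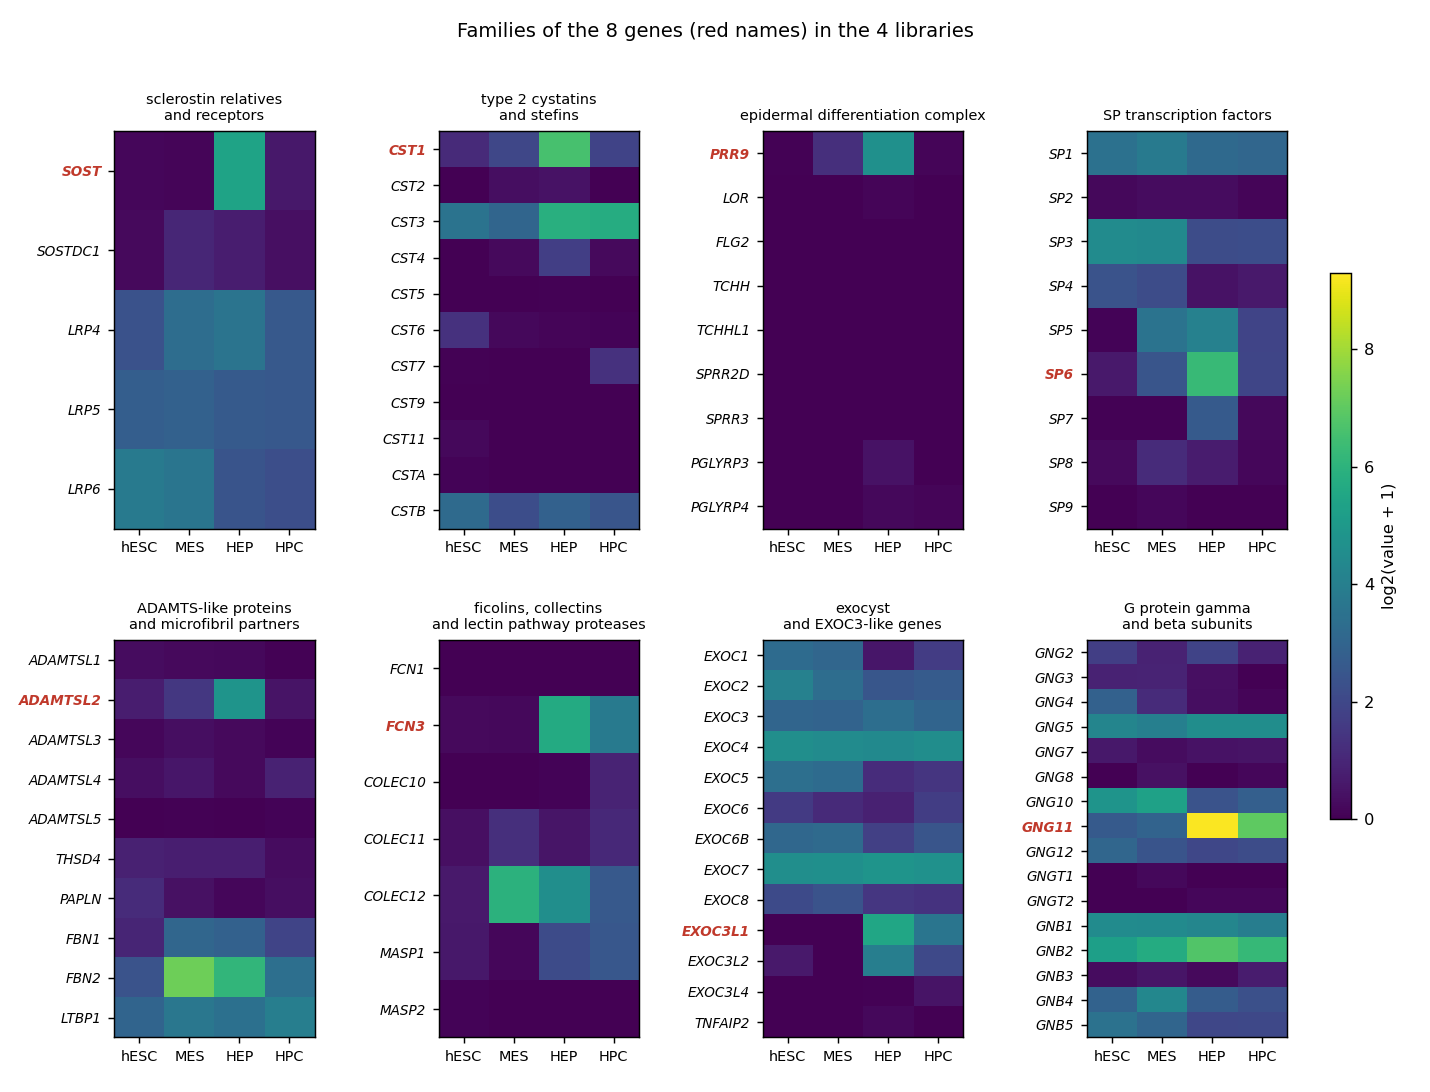
Heat map of log2(value + 1), colour scale from 0 to 9.3, for each of the 8 genes (red names) and the genes of its family or pathway with a row in the tables, in hESC, MES, HEP and HPC. SP7, EXOC3L2 and CST4 had their highest value in HEP like their relatives, whereas the exocyst subunits EXOC4 and EXOC7 and the subunit GNG5 were near constant.

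Before day 4, 4 genes of the first set were above their hESC values. From hESC to MES none of the 8 genes passed the rule in either direction. Only GNG11 (5.14 in hESC, 6.81 in MES) could have done so, as the other genes lay under 5 in both libraries. Of all genes, 3.79% were higher and 3.7% lower (4.8% and 2.04% with a common total). PRR9 and SP6 had differences of at least 1 for MES minus hESC (1.19 and 1.83) with values under 5, and CST1 and ADAMTSL2 had 0.86 and 0.76. SOST, FCN3, EXOC3L1 and GNG11 lay between -0.05 and 0.35. The median of the 8 was 0.55, against -0.17 over the 8174 genes at 5 or more in any library. After day 4, HPC minus MES was -1.13 in PRR9, -1.02 in ADAMTSL2, -0.51 in SP6, -0.09 in CST1 and 0.48 in SOST; the sign for CST1 turned under 3 of the 5 scalings tried. The order of the levels was hESC, HPC, MES and HEP from low to high in CST1, PRR9 and SP6, and HPC, hESC, MES and HEP in ADAMTSL2. In SOST and FCN3 it was MES, hESC, HPC and HEP, and in EXOC3L1 and GNG11 HPC stood second to HEP, above both earlier libraries. With 1 library a group, neighbours in these orders cannot be separated where they lie as close as 0.1 and 0.11 (SOST), 0.14 and 0.18 (FCN3) or 2.7 and 2.95 (CST1).

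**Figure D3:**
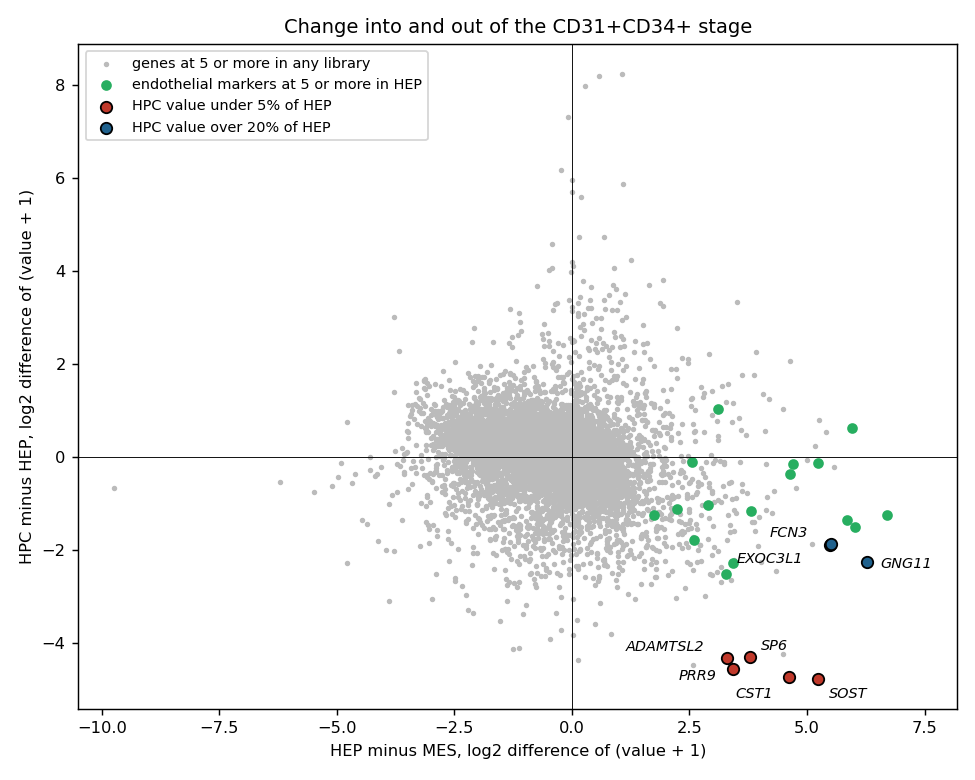
Log2 difference of (value + 1) for HEP minus MES (x axis) against HPC minus HEP (y axis) for the 8174 genes at 5 or more in any library (grey), 16 endothelial markers (green) and the 8 genes, with 1 library per group and with HEP in both axes. SOST, CST1, PRR9, SP6 and ADAMTSL2 (red) lie at -4.31 or below on the y axis, while FCN3, EXOC3L1 and GNG11 (blue, the first pair on top of each other) lie between -2.27 and -1.87.

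Endothelial markers are given for scale; the first set was set apart by its low HPC values, so its place below them was fixed by that division. Of 16 such markers at 5 or more in HEP, none was under 5% in HPC. The lowest were SOX7, an endothelial transcription factor (13.9%), and EGFL7, a secreted endothelial factor (17%), and the median was 42.6%. VE-cadherin, CDH5, stood at 25.1 in HPC against 73.5 in HEP, and KDR, the VEGF receptor, at 88.3 in HPC against 210.4 in HEP. FLI1, a transcription factor shared by endothelium and blood, was higher in HPC than in HEP, a call lost under 2 of 5 scalings. The second set, at 20.6% to 25.8%, lay at the low end of the range of these markers. Only SOX7, EGFL7 and ENG (20.9%) were at or below 25.8%, and the next was CDH5 (34.2%). Markers of blood cells summed to 3020 in HPC and 30.3 in HEP, and 10 of 12 detected ones were higher in HPC.

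**Figure D4:**
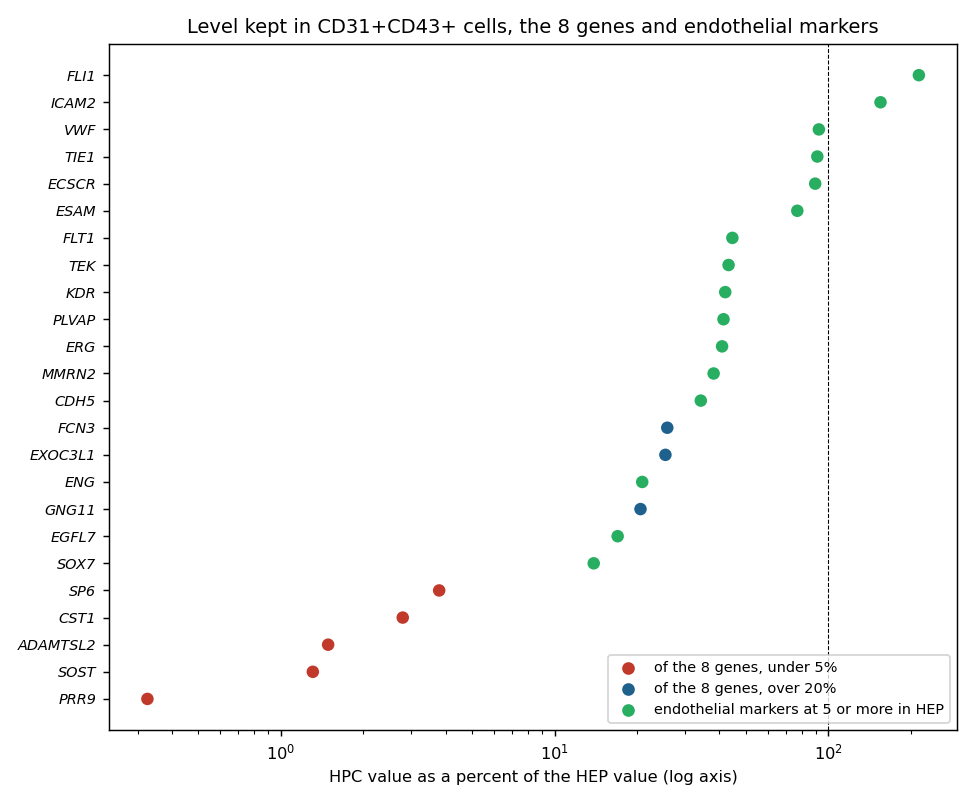
HPC value as a percent of the HEP value (log axis) for the 8 genes and 16 endothelial markers at 5 or more in HEP, 1 library per group, with the dashed line at equal levels. The red genes lie between 0.326% and 3.79%, below SOX7 (13.9%), the lowest endothelial marker. The blue genes lie at the low end of the markers, below CDH5 (34.2%).

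The genes whose course was most like that of each of the 8 were looked up over the same 4 values, so they bear nothing on the division into sets. Likeness was the Euclidean distance between log2(value + 1) profiles over the 4 libraries, each centred on its own mean, and the 3 nearest of 8166 other genes at 5 or more in any library were taken. For FCN3 and EXOC3L1 these were MMRN2, an endothelial matrix protein (0.61 and 0.64), CDH5 (0.68 and 0.69) and HOPX, a homeodomain-only protein (0.96 and 0.96). For GNG11 they were CDH5 (0.69), MMRN2 (1) and PLVAP, a protein of endothelial diaphragms (1.06). For SOST, CST1, PRR9 and ADAMTSL2 the nearest was APLN, the ligand of the apelin receptor used for the day 2 sort, at 0.8, 1.07, 1.21 and 1.04. APLN stood at 0.32 in hESC and 0.02 in MES, at 22.0 in HEP and at 0.22 in HPC. Next came ECM1, an extracellular matrix protein, and NOS3, the endothelial nitric oxide synthase, for SOST (1.65 and 1.66). KLF2, a transcription factor of endothelium under flow, was among the 3 nearest for CST1 (1.6), PRR9 (1.46) and ADAMTSL2 (1.29). CRIP2, a LIM domain protein, was also among them for CST1 (1.61) and SP6 (1.36), and LRRC4B, a synaptic adhesion protein, for ADAMTSL2 (1.2). NKX2-5, a cardiac transcription factor, was second for PRR9 (1.25) and for SP6 (1.23). The nearest to SP6 was ZAP70, a kinase of T cells, which stood at 0.06 in hESC and 9.1 in MES, at 58.9 in HEP and at 1.69 in HPC. Other genes of the 8 were nearer still, except for GNG11, which lay 0.86 from EXOC3L1: SOST lay 0.64 from CST1 and PRR9 lay 0.41 from ADAMTSL2. With 4 libraries, many genes can share a profile.

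The genes beside the 8 on their chromosomes were read next, 3 on either side in the RefSeq order of GRCh38.p14. Of 18 neighbours at 5 or more in any library, 11 (61.1%) had their highest value in HEP, as did 18.5% of the 8174 such genes. With the trend described next removed, these were 10 (55.6%) and 19.7%. Under the other 4 scalings they were 12 (66.7%) and 23.7% to 28.9%. Most of these peaks were slight, as in DHX8, a splicing helicase beside SOST, at 22.5 in HEP and 20.7 in MES. Only TFPI2, a protease inhibitor beside GNG11 (18.1 in HEP, 4.85 in MES), and SARDH, sarcosine dehydrogenase beside ADAMTSL2 (9.78 in HEP, 3.06 in MES), were also particular to HEP. Neighbours had a median GC content of 56.1%, against 50.7% over all genes at 5 or more, and the part of GC content in this count beyond that removal was not tested.

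**Figure D5:**
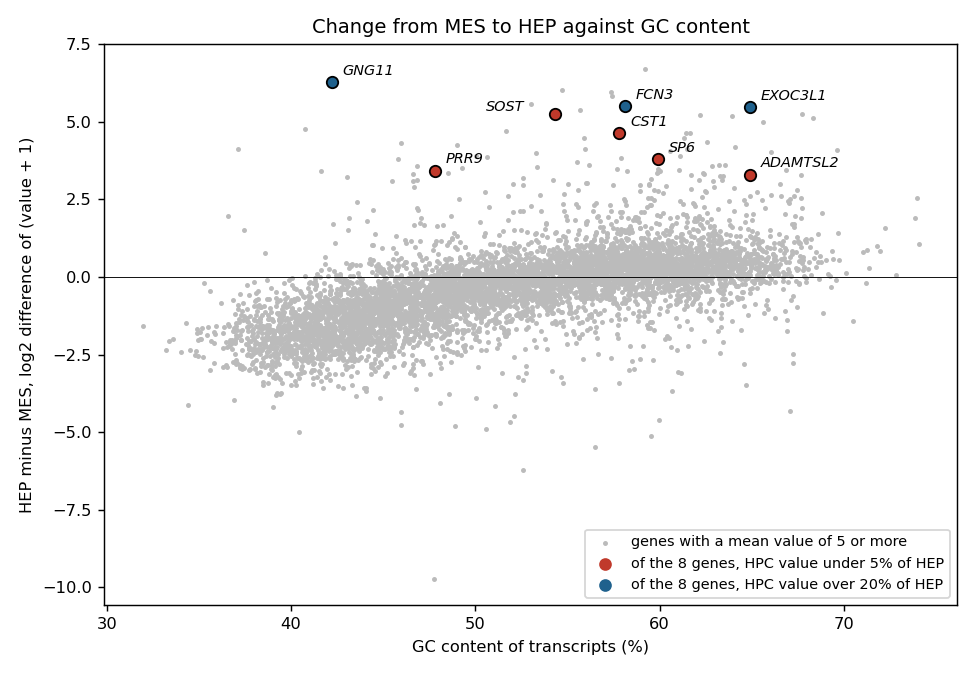
GC content of protein-coding transcripts (x axis, percent) against the log2 difference of (value + 1) for HEP minus MES (y axis) in 6366 genes averaging at least 5 (grey) and the 8 genes (red and blue as before). GC-poor genes lie lower, and the 8 genes, from 42.2% GC in GNG11 to 64.9% in ADAMTSL2 and EXOC3L1, all lie at 3.3 or above.

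Differences between these libraries moved with GC content. Over 6366 genes averaging at least 5, the Spearman rho of the difference with GC content was 0.71 for HEP minus MES and -0.43 for HPC minus HEP, across genes of 1 library each and so without replicates. The 8 genes had a median GC content of 57.9%, against 50.7% over all genes at 5 or more in any library. They spanned 42.2% (GNG11) to 64.9% (ADAMTSL2 and EXOC3L1). GNG11 stood farthest from the trend: 971 other genes within 2 points of its GC content had a median HEP minus MES of -1.54 and a highest value of 4.78, against 6.29 for GNG11. PRR9 lay in a class, again of genes within 2 points, with a median of -0.66, and ADAMTSL2 and EXOC3L1 in classes with a median of 0.46. EXOC3L1, at 5.49, was above every other gene of its class, the highest of which had 5.18. The 8 genes were chosen for high HEP values against MES or HPC, so their places in these classes are a description. Removing the trend from each library reduced it without ending it, as rho was still 0.13 for HEP minus MES and -0.1 for HPC minus HEP. HEP minus MES was then 7.73 in GNG11, 5.21 in SOST and 2.86 in ADAMTSL2. HPC minus HEP then lay between -4.95 (PRR9) and -4.00 (ADAMTSL2) in the first set. In the second set it lay between -2.67 (GNG11) and -1.57 (EXOC3L1). The sets were divided by the part of the HEP level left in HPC, so this gap bears nothing on the division.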

How the data were processed

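RNA sequencing libraries of 4 groups, 1 each, were analysed. Per the labels' protocols, RNA was extracted with Trizol and 2 ug were made into libraries with the Illumina TruSeq RNA kit. The authors deposited 1 normalised signal value a gene, rounded to 2 decimals. BWA, Bowtie, RSEM and build hg19 are named, per the submitters' processing notes, without versions or roles. Whether the signal is FPKM or TPM, and how strand was treated, is not given in the sources used. Each table had 17634 rows; 4 rows that shared 2 names turned into dates were left out. A 0 is reported as listed at 0. GC content came from GENCODE 29 transcripts for 17428 genes (98.9%); a library's median log2 deviation in 50 GC bins, averaged over 5 neighbouring bins, was divided out as an alternative. The procedure was also run on simulated data, without and with a linear GC trend in HEP alone. That setting is simpler than these libraries, so nothing is read from it on how well the trend was removed here. Python 3.11.15, numpy 2.4.6, pandas 2.3.3 and matplotlib 3.10.9 were used. The 8 genes, the 9 family and 8 marker lists and the rules were chosen with earlier results of these data known. Genes named were the 8, genes of these lists, the 3 most alike and 3 neighbours on each side; others are said to be named after their values were seen. Trophoblast markers, also read, summed to 2.96 in HEP and 6.78 in MES, and pluripotency markers to 356 in HEP and 1180 in MES.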

Additional observations from a re-analysis of the deposited data

How the results depend on the processing

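No paired analysis was possible because each group has 1 library. The counts of the 8 genes past the rule were recomputed under 10 alternatives. With pseudocounts of 0.1 and 5, and under each of 5 scalings (median-of-ratios, upper quartile, a common total, a common total without ribosomal protein, histone and globin genes, and the GC trend removed), the counts were as reported. Without a minimum, 2 of the 8 were past the rule for MES against hESC, 4 for HPC against hESC, and 5 for HPC against MES (3 higher, 2 lower). With a minimum of 20, 1 was past it for HPC against hESC and 1 for HPC against MES, since only GNG11 is that high. With a fold of 4, 6 were lower in HPC than in HEP. Of 336 single differences recomputed, 331 kept their direction and side of the rule and 5 small ones, of SOST and CST1, changed sign without passing it. Among the HEP minus MES differences GNG11 moved most with scaling, to 7.73 with the GC trend removed against 6.29 as deposited. Scaling raised the median HEP minus MES of all genes by 0.21 to 0.51. The split of all genes depended on it: for HEP against MES, 3.32% were higher and 13.9% lower as deposited, 8.26% and 8.2% with median-of-ratios scaling, and for HPC against HEP 3.01% and 3.57% as deposited, 2.21% and 5.01% with a common total. With median-of-ratios scaling, 10.8% were higher and 10.6% lower for HEP against hESC, 9.04% and 8.92% for HPC against hESC, and 8.39% and 7.74% for HPC against MES; with a common total, 4.8% were higher and 2.04% lower for MES against hESC. Depth is unknown, so values near 0 carry no floor or interval.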
